A study of Mus musculus with 14 samples.

Results

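Socs1, Socs2, Socs3, Cish, Pim1, Pim2 and Osm are 7 of the 47937 genes in the deposited count table, and they were picked by symbol as a set of cytokine feedback genes, with earlier results of these data known. Gene expression had been measured by poly(A) RNA sequencing in 14 libraries of mouse bone marrow-derived macrophages, which are cells grown out of marrow precursors in culture. All of the cells carried the wild-type genotype. There were 6 libraries of untreated cells, 5 of cells that received supernatant from mast cells and 3 of cells that received supernatant from mast cell intracellular traps, called mast and trap supernatant here, with treatments of 3.5 h. Each library also has a batch label: batch 1 holds 2 untreated, 2 mast and 1 trap library, batch 2 holds 2 untreated, 1 mast and 1 trap library, and batch 3 holds 2 untreated, 2 mast and 1 trap library. The labels say neither what a batch shares, nor how the mast cells were treated, nor whether replicates were separate cultures or animals. The p-values therefore measure only the spread between these libraries, which may be technical.

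Many cytokine receptors lack an enzyme of their own and signal through Janus kinases, which phosphorylate STAT transcription factors. STATs in turn switch on SOCS genes and Cish, whose protein products bind receptors or kinases and damp the same signal. Socs1 and Socs3 are best known in macrophages as brakes on interferon and on gp130 cytokine signals, while Socs2 and Cish are known for restraining growth hormone and STAT5-coupled receptors. Pim1 and Pim2 encode serine/threonine kinases that are active once made and are induced by the same receptors. Osm encodes oncostatin M, a secreted cytokine of the interleukin-6 family that macrophages and mast cells can both make. Osm, Socs3 and Pim1 are also known as early-response genes.

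The genes lie on GRCm38 at chr16:10782240-10785536 (Socs1), chr10:95385362-95417180 (Socs2), chr11:117966079-117970047 (Socs3), chr9:107296026-107302784 (Cish), chr17:29490753-29496112 (Pim1), chrX:7878262-7883432 (Pim2) and chr11:4236420-4241026 (Osm). Socs1, Socs2 and Socs3 are on the minus strand and the others on the plus strand. Counts were summed over exons. Exons of Cish overlap the antisense genes Gm17040 and Gm17041, and Pim1 overlaps the antisense gene Gm26885; since the strand setting of the counting is not given, reads of these pairs cannot be told apart. RefSeq promoter windows (GRCm38.p6) were found for 5 of the 7 genes, 6 windows in all. In the 250 bases before each start, both strands were searched for TTCNNNGAA, the spacing that STAT dimers bind, for the STAT6 motif, which has 1 more base between the same ends, and for TGACGTCA, the cAMP response element; no sequence can match both of the first motifs from the same start. The only match was TTCTTAGAA in the Socs3 window, at chr11:117969512-117969520 and 154 bases before the start. Of all 32817 RefSeq windows of this length, 7.01% hold TTCNNNGAA, 5.85% the STAT6 motif and 1.55% TGACGTCA. The promoters of 3 genes that rose with both supernatants in batch 1 are shown 5′ to 3′, up to the first annotated exon base met within the window: Socs1 (chr16:10785537-10785786, minus strand), Socs3 (chr11:117969452-117969616, minus strand) and Pim1 (chr17:29490535-29490752, plus strand). The Socs3 stretch lies inside the annotated gene, because the RefSeq start used is downstream of the gene's 5′ end at chr11:117970047. Capitals mark the TTCNNNGAA match.
Socs1: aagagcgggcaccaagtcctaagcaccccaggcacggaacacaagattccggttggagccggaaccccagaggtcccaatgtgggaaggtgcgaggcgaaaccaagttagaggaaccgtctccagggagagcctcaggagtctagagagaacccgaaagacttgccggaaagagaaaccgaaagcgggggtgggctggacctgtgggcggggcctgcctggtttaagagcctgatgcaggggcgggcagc
Socs3: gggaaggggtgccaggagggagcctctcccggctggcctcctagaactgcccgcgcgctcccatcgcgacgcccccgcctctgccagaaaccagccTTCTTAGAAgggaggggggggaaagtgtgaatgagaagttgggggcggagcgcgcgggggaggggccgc
Pim1: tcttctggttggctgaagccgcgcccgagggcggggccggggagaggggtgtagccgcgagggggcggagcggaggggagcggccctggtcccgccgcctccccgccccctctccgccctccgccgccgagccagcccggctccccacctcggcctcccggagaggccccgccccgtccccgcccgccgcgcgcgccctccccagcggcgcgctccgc
A match describes letters in the window and is not evidence that a factor bound there, and the windows of Socs1 and Pim1 having none says nothing about STAT factors at those genes.

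The libraries summed to between 13455686 and 22720419 counts (untreated), 11729073 and 16123421 (mast supernatant) and 12414738 and 16491536 (trap supernatant). All 7 genes passed the filter on low counts. Socs2 was by far the least counted, with 187 reads over the 14 libraries and 3 to 38 in any one, and the other 6 genes had between 883 and 38614 reads in total. Batch made up 97.8% of the first principal component, which carried 34% of the variance. Macrophage markers were high in every library, and all 12 were detected in each group. Their summed level was 20120 to 22058 CPM (counts per 1e6 of the library's total as scaled by TMM) in batch 1. It was 12894 to 13968 CPM in batch 2 and 10474 to 11579 CPM in batch 3, so the sum also differed by batch.

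Untreated macrophages already carried all 7 transcripts at quite different levels. Per kilobase of exon, the untreated mean was 39.3 ± 6.29 CPM for Pim1 (SD, n = 6), 11.5 ± 4.05 for Socs3, 4.99 ± 2.17 for Osm, 1.97 ± 0.419 for Pim2, 1.28 ± 0.394 for Socs1, 0.653 ± 0.108 for Cish and 0.0698 ± 0.0175 for Socs2. Pim1 stood clear of Socs3, while Socs3 and Osm overlapped between libraries, as did Pim2 and Socs1. The other neighbours in that order did not overlap. The order depends on the divisor, the merged length of all annotated exons, which was 6419 bases for Cish and 9531 for Socs2. That length need not be the length of the transcript made. In CPM, untreated Cish (4.19 ± 0.693) and Socs1 (3.73 ± 1.14) overlapped, with the mean of Cish the higher. With mast supernatant the per-kilobase means (n = 5) were 76.2 ± 56.7 for Pim1, 15.9 ± 15.5 for Osm, 11.6 ± 8.37 for Socs3, 2.02 ± 0.49 for Pim2, 1.36 ± 0.681 for Socs1, 0.667 ± 0.528 for Cish and 0.0637 ± 0.0321 for Socs2. With trap supernatant (n = 3) they were 63.6 ± 41.1 for Pim1, 13.6 ± 17.2 for Osm, 12.5 ± 8.04 for Socs3, 2.07 ± 0.969 for Socs1, 1.86 ± 0.217 for Pim2, 0.708 ± 0.356 for Cish and 0.193 ± 0.111 for Socs2. The SD of Osm was about as large as its mean in both treated groups.

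The main observation is that 5 of the genes moved in opposite directions in batches 1 and 3. With mast supernatant, Socs1, Socs3, Cish, Pim1 and Osm rose in batch 1 and fell in batch 3, a pattern that 2.21% of all 13061 tested genes showed. Trap supernatant raised Socs1, Socs3, Pim1 and Osm in batch 1 and lowered Socs3 and Osm in batch 3, a pattern shown by 0.567% of all genes. Batch 2 lay in between and was mixed. Tests within a batch are edgeR quasi-likelihood F tests with Benjamini-Hochberg adjustment over all 13061 genes and a threshold of 0.05, in a model with 1 mean for each of the 9 pairings of group and batch. Its spread comes from the 5 pairings that hold 2 libraries, and a pairing with 1 library is assumed to vary likewise. In these bulk samples, fewer cells that make a transcript and less transcript per cell cannot be told apart.

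**Figure D1:**
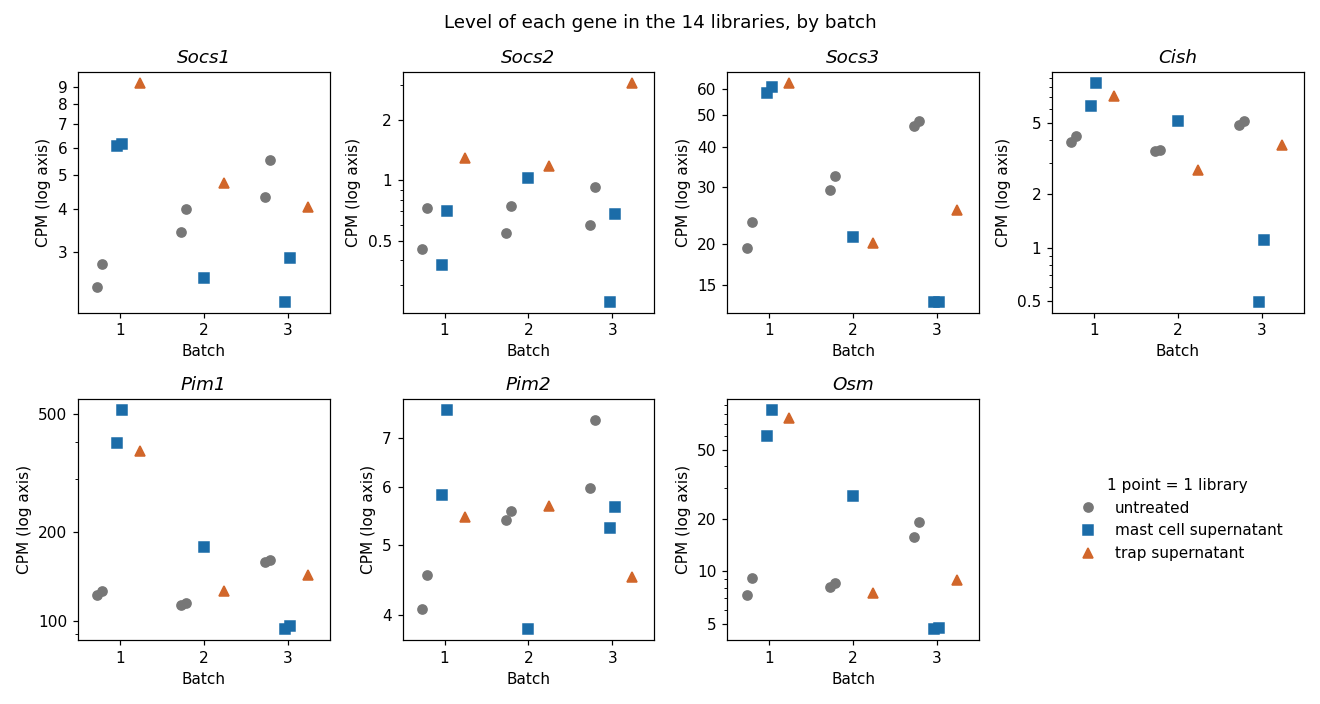
Level of each of the 7 genes in CPM (vertical log axis, a different range in each panel) in every library, by batch label (horizontal axis), with 1 point per library and grey circles for untreated, blue squares for mast and orange triangles for trap supernatant. In batch 1 the treated points of Osm, Pim1, Socs3, Cish and Socs1 lie above the untreated ones, and in batch 3 the mast points of these 5 genes lie below them.

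Osm had the widest swing of the set. Its untreated level was 7.27 and 9.10 CPM in batch 1, 8.57 and 8.10 in batch 2, and 19.2 and 15.7 in batch 3. With mast supernatant it was 60.1 and 84.3 CPM in batch 1, 27.04 in batch 2, and 4.67 and 4.72 in batch 3. Mast libraries were thus above both untreated libraries of their batch in batches 1 and 2 and below them in batch 3. The mast supernatant difference was 8.76-fold in batch 1 (log2 3.13 ± 0.16 SE, adjusted p = 2.5e-09), 3.24-fold in batch 2 (1.70 ± 0.20, adjusted p = 4.29e-05) and 3.71-fold lower in batch 3 (-1.89 ± 0.20, adjusted p = 1.03e-05). The trap libraries of batches 1, 2 and 3 had 76.1, 7.49 and 8.95 CPM of Osm. It rose 9.25-fold in batch 1 (3.21 ± 0.18, adjusted p = 1.27e-08), was at log2 -0.15 ± 0.24 in batch 2 (adjusted p = 0.97) and fell by 0.96 ± 0.23 on the log2 scale in batch 3 (adjusted p = 0.0262). The fall with trap supernatant in batch 3 is the least firm of these: its adjusted p was 0.0506 to 0.0606 in turn without untreated replicate 2, 3 or 5 or mast replicate 3 or 5, and 0.0938 by limma-voom. The effect on Osm differed between batches for mast (adjusted p = 8.28e-09) and for trap supernatant (adjusted p = 5.93e-07).

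Socs3, a brake on gp130 receptors, moved by less and turned at a different batch. Untreated libraries held 19.5 and 23.5 CPM in batch 1, 29.4 and 32.4 in batch 2, and 46.3 and 47.9 in batch 3. Mast supernatant libraries held 60.8 and 58.6 CPM in batch 1, 21.2 in batch 2, and 13.3 and 13.3 in batch 3, and the trap libraries held 62.8, 20.2 and 25.5 CPM. Every treated library of batch 1 exceeded all 6 untreated libraries, and both treated groups were below their own untreated libraries in batches 2 and 3. Socs3 rose 2.77-fold with mast supernatant in batch 1 (1.47 ± 0.10, adjusted p = 2.14e-08) and 2.92-fold with trap supernatant (1.54 ± 0.12, adjusted p = 1.15e-07). In batch 3 it fell 3.53-fold with mast (-1.82 ± 0.12, adjusted p = 8.8e-09) and 1.85-fold with trap supernatant (-0.89 ± 0.14, adjusted p = 0.000486). Batch 2 gave smaller falls, 1.46-fold with mast (-0.55 ± 0.13, adjusted p = 0.0243) and 1.53-fold with trap supernatant (-0.61 ± 0.13, adjusted p = 0.0203). These calls in batch 2 were lost without untreated replicate 2 (adjusted p = 0.0558 for mast and 0.0592 for trap) or 5 (0.201 and 0.205), and with DESeq2 (0.077 and 0.0515). In the mast library of batch 2, Osm was above and Socs3 below the untreated libraries.

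Socs1, which blocks Janus kinases at interferon receptors, was higher in all 3 treated libraries of batch 1 than in any untreated library. Untreated values were 2.37 and 2.76 CPM in batch 1, 3.98 and 3.43 in batch 2, and 5.54 and 4.31 in batch 3. The mast libraries gave 6.16 and 6.05 CPM in batch 1, 2.52 in batch 2, and 2.89 and 2.15 in batch 3. The trap library of batch 1 stood at 9.23 CPM, that of batch 2 at 4.75 and that of batch 3 at 4.03. In batch 1 Socs1 rose 2.37-fold with mast (1.24 ± 0.22, adjusted p = 0.00112) and 3.58-fold with trap supernatant (1.84 ± 0.25, adjusted p = 8e-05). With mast supernatant in batch 3 it fell 1.95-fold (-0.96 ± 0.24, adjusted p = 0.0125), a call lost without untreated replicate 3 (adjusted p = 0.0551), without mast replicate 5 (0.129) and with DESeq2 (0.0846). The differences in batch 2 did not pass the test, at log2 -0.56 ± 0.29 with mast and 0.36 ± 0.26 with trap supernatant, nor did that of trap supernatant in batch 3, at -0.29 ± 0.28.

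Cish, which competes at STAT5-coupled receptors, showed the deepest fall of the set and at a low level. It stood at 4.24 and 3.90 CPM in untreated libraries of batch 1, 3.51 and 3.50 in batch 2, and 4.87 and 5.15 in batch 3. Mast supernatant libraries had 6.24 and 8.41 CPM in batch 1, 5.15 in batch 2, and only 1.10 and 0.497 in batch 3. Both mast libraries of batch 3 were far below every other library of the study, and the lower one rested on 6 reads. Cish fell 6.22-fold there (-2.64 ± 0.32, adjusted p = 1.74e-05), while the trap library of the same batch, at 3.79 CPM, did not pass the test (-0.40 ± 0.30, adjusted p = 0.583). In batch 1 Cish rose 1.79-fold with mast supernatant (0.84 ± 0.22, adjusted p = 0.0191). That call was lost without untreated replicate 1 (adjusted p = 0.112), untreated replicate 4 (0.176) or mast replicate 4 (0.284), and with DESeq2 (0.131). In batch 2 the mast difference was 0.55 ± 0.27 (adjusted p = 0.439). The trap library of batch 1, at 7.11 CPM, gave 0.81 ± 0.26 (adjusted p = 0.0808, 0.0308 and 0.037 without untreated replicate 3 or 6, and 0.0494 without the filter), and that of batch 2, at 2.74 CPM, gave -0.35 ± 0.31 (adjusted p = 0.882).

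Pim1, the most abundant of the 7 and a kinase that favours cell survival, followed Osm at a smaller scale. Untreated libraries held 126 and 122 CPM in batch 1, 113 and 114 in batch 2, and 160 and 158 in batch 3. With mast supernatant they held 398 and 515 CPM in batch 1, 178 in batch 2, and 95.9 and 93.7 in batch 3. Mast libraries were above every untreated library in batches 1 and 2 and below every one in batch 3. Pim1 rose 3.68-fold with mast supernatant in batch 1 (1.88 ± 0.09, adjusted p = 4.22e-10) and 1.56-fold in batch 2 (0.64 ± 0.11, adjusted p = 0.00148), and fell 1.67-fold in batch 3 (-0.74 ± 0.10, adjusted p = 3.43e-05). Trap libraries were at 373, 125 and 143 CPM. Only the first of these differed from its untreated libraries by the test, 3.01-fold higher (1.59 ± 0.11, adjusted p = 3.07e-08), and the others gave log2 0.14 ± 0.12 and -0.15 ± 0.12.

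Pim2 and Socs2 had fewer calls than the other 5. Pim2, the close relative of Pim1, ranged from 4.08 to 7.42 CPM over the untreated, 3.83 to 7.65 over the mast and 4.51 to 5.65 over the trap libraries. No difference of Pim2 within a batch passed the test, the widest being 0.64 ± 0.20 with mast supernatant in batch 1 (adjusted p = 0.0554, and 0.0207, 0.0243 and 0.0455 without untreated replicate 3, untreated replicate 6 or mast replicate 1). Its mast difference was -0.52 ± 0.25 in batch 2 and -0.30 ± 0.20 in batch 3, and its trap differences were 0.34 ± 0.25, 0.04 ± 0.24 and -0.57 ± 0.26 in batches 1, 2 and 3. The signs of Pim2 in batches 1 and 3 were thus those of the other 5, at a smaller size. Socs2 was at 0.455 to 0.924 CPM in untreated libraries and at 0.249 to 1.03 with mast supernatant, whose log2 differences of -0.10 ± 0.56, 0.66 ± 0.57 and -0.71 ± 0.58 in batches 1, 2 and 3 did not pass. The trap libraries of batches 1, 2 and 3 had 1.29, 1.17 and 3.06 CPM, so that all 3 trap libraries were above all 6 untreated ones. Of all tested genes, 3.12% had no overlap between trap and untreated libraries. Within batch 3 Socs2 rose with trap supernatant by 2.0 ± 0.47 on the log2 scale (95% interval 1.01 to 2.99, adjusted p = 0.0197), and it was at 1.10 ± 0.56 in batch 1 and 0.85 ± 0.55 in batch 2. The call was lost without untreated replicate 6 (adjusted p = 0.0684) and with DESeq2 (0.346), and the trap library of batch 3 holds 38 reads of the gene.

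**Figure D2:**
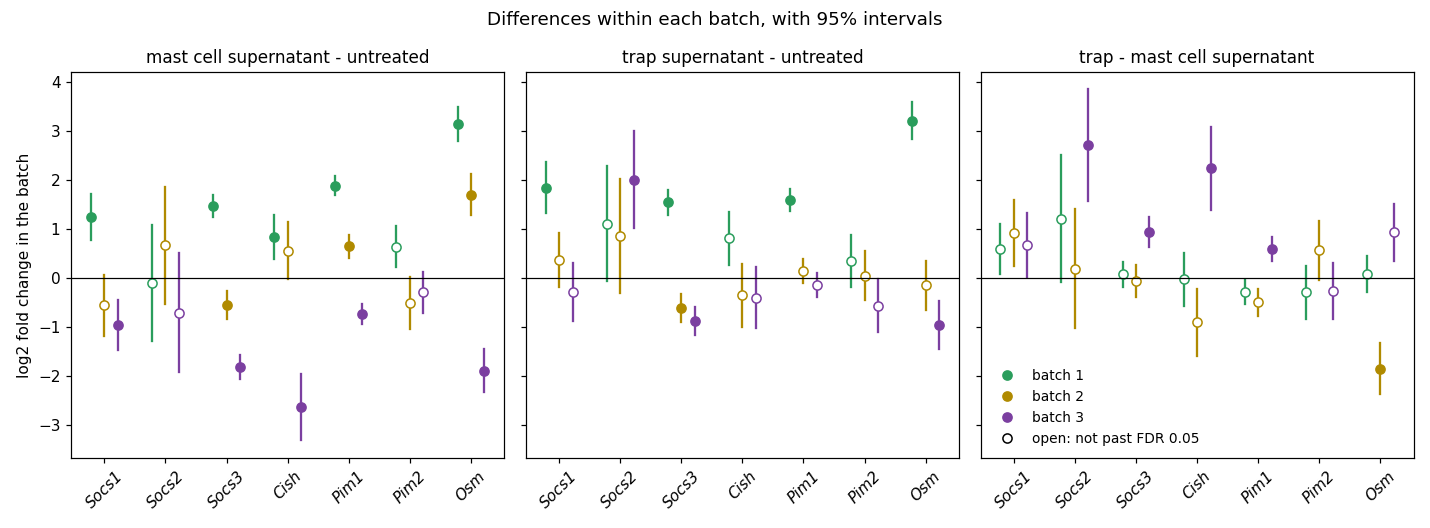
Log2 fold change of each gene within batch 1 (green), 2 (ochre) and 3 (purple), with 95% intervals, for mast against untreated (left), trap against untreated (middle) and trap against mast supernatant (right), where filled points passed an adjusted p of 0.05. Osm runs from 3.13 in batch 1 to -1.89 in batch 3 with mast supernatant, and Socs2 alone lies at or above 0.85 with trap supernatant in all 3 batches.

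Counted by batch, 5 of the 7 genes rose and none fell with mast supernatant in batch 1, where 5.67% of all genes rose and 8.97% passed in either direction. In batch 2, 2 rose and 1 fell, against 2.4% and 1.63% of all genes and 4.03% in either direction. In batch 3 none rose and 5 fell, where 8.18% of all genes fell and 12.1% passed in either direction. The median log2 difference of the 7 genes was 1.24, 0.55 and -0.96 in batches 1, 2 and 3, and that of all genes was -0.01, -0.01 and 0.00. With trap supernatant the counts were 4 risen in batch 1 (4.32% of all genes rose there, and 6.07% passed), 1 fallen in batch 2 (0.896% fell and 1.82% passed) and 1 risen with 2 fallen in batch 3 (1.87% rose, 1.79% fell and 3.66% passed). The medians with trap supernatant were 1.54, 0.04 and -0.40 for the 7 genes, and -0.02, -0.01 and -0.01 for all genes. Both treated groups share the untreated libraries, so their columns of values are not independent of each other.

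The difference between batches was itself tested as an interaction. For mast supernatant it passed for 6 of the 7 genes, against 9.29% of all genes: Socs1 (adjusted p = 0.000283), Socs3 (6.49e-10), Cish (1.48e-05), Pim1 (2.44e-09), Pim2 (0.0371) and Osm (8.28e-09), with Socs2 at 0.553. The Pim2 call depended on single libraries: its adjusted p was 0.0646 to 0.218 without any one of untreated replicates 1, 2, 4 and 5 or mast replicates 3, 4 and 5, 0.0537 by limma-voom and 0.245 by DESeq2. For trap supernatant the interaction passed for 4 genes, against 3.75% of all genes: Socs1 (0.00336), Socs3 (4.04e-07), Pim1 (3.17e-06) and Osm (5.93e-07). Cish was at 0.141 (0.044 without untreated replicate 3), Pim2 at 0.417 and Socs2 at 0.751.

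The untreated macrophages differed between batches as well. Of the 7 genes, 5 passed a test of the 3 untreated batch means, against 38.1% of all genes: Socs1 (adjusted p = 0.00843), Socs3 (5.51e-07), Pim1 (0.00141), Pim2 (0.0374) and Osm (0.000106). Each of these had its highest untreated mean in batch 3, the batch in which Socs1, Socs3, Pim1 and Osm fell with mast supernatant. Cish (0.189) and Socs2 (0.824) did not pass. Socs1 did not pass without untreated replicate 1 (0.0785), nor Pim2 without any one of untreated replicates 1, 2, 4, 5 and 6 (0.0677 to 0.211). The treated levels also differed between batches: Osm with mast supernatant was at 60.1 or more in batch 1 and at 4.72 or less in batch 3, a wider range than the 7.27 to 19.2 CPM of the untreated libraries. For other genes the 2 ranges were closer. Socs1 spanned 2.15 to 6.16 CPM with mast supernatant and 2.37 to 5.54 untreated, and Pim2 3.83 to 7.65 and 4.08 to 7.42.

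Averaged over batches, the same genes gave no call. In the model with group and batch as additive terms, 0 of the 7 passed for mast supernatant against untreated, where 4.79% of all genes passed, and 0 of 7 passed for trap against untreated, where 1.72% did. None of the 7 had an unadjusted p under 0.05 for mast and 1 had for trap supernatant, against 19.1% and 12.8% of all genes. By limma-voom 0 and 0 were called, and by DESeq2 0 and 1. Osm was at 11.3 ± 4.92 CPM untreated (SD, n = 6), 36.2 ± 35.2 with mast (n = 5) and 30.8 ± 39.2 with trap supernatant (n = 3), and the 95% intervals of its log2 differences, 0.98 ± 0.82 (-0.86 to 2.81, adjusted p = 0.57) and 0.71 ± 0.92 (-1.36 to 2.78), included 0. Pim1 gave 0.56 ± 0.40 with mast (adjusted p = 0.494) and 0.44 ± 0.44 with trap supernatant (adjusted p = 0.76). Mast supernatant estimates were -0.31 ± 0.51 for Socs3, -0.15 ± 0.47 for Cish, -0.03 ± 0.34 for Socs1, 0.02 ± 0.18 for Pim2 and -0.07 ± 0.38 for Socs2. Without batch 1, Socs3 passed as lower with mast supernatant (-1.26, adjusted p = 0.0319), and without batch 3, Cish passed as higher (0.71, adjusted p = 0.0499).

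Socs2 was the gene nearest to a call in the averaged trap comparison. Its mean was 0.666 ± 0.167 CPM untreated (n = 6) and 1.84 ± 1.06 with trap supernatant (n = 3), a 2.62-fold difference (1.39 ± 0.37, 95% interval 0.61 to 2.18). The unadjusted p was 0.00179 and the adjusted p 0.0771. It passed without the filter on low counts (1.40, adjusted p = 0.0304), with DESeq2 (1.42, adjusted p = 0.0453) and without trap replicate 2 (1.76, adjusted p = 0.0398), while the adjusted p ran up to 0.623 over all settings. The other trap estimates were 0.63 ± 0.37 for Socs1 (adjusted p = 0.513), -0.10 ± 0.57 for Socs3, 0.01 ± 0.55 for Cish and -0.05 ± 0.21 for Pim2.

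Trap and mast supernatant were also compared directly, first over all batches and then within each, the second being added after the data were seen. Over all batches 0 of the 7 genes and 0% of all genes passed with edgeR. An unadjusted p under 0.05 was found for 569 genes, or 4.36% of all, Socs2 among them (1.46 ± 0.40, unadjusted p = 0.0024). A threshold of 0.05 gives about that share without any difference. DESeq2 called 11 genes and limma-voom 0, none of the 7 among them. The other 6 genes were at 0.66 ± 0.39 (Socs1), 0.21 ± 0.57 (Socs3), 0.15 ± 0.56 (Cish), -0.12 ± 0.46 (Pim1), -0.07 ± 0.22 (Pim2) and -0.27 ± 0.87 (Osm). Within batch 1 none of the 7 passed, where 0.199% of all genes did. An unadjusted p under 0.05 was found for 2 of the 7 and for 6.24% of all genes. The log2 differences were 0.08 for Osm (95% interval -0.28 to 0.44), 0.07 for Socs3 (-0.18 to 0.33), 0.60 for Socs1 (0.09 to 1.10) and 1.21 for Socs2 (-0.09 to 2.50). They were -0.03 for Cish (-0.58 to 0.51), -0.29 for Pim1 (-0.53 to -0.05) and -0.30 for Pim2 (-0.83 to 0.23). In batch 2, with 1 library on each side, Osm was 3.61-fold lower with trap supernatant (-1.85 ± 0.24, adjusted p = 0.000768), where 0.651% of all genes were lower and 1.06% passed, and Pim1 was at -0.50 ± 0.13 (adjusted p = 0.0964, 0.00256 without the filter, and 0.0155 to 0.0425 without untreated replicate 3 or 6 or mast replicate 1 or 4). The other 5 did not pass there, at 0.92 ± 0.32 for Socs1, 0.19 ± 0.58 for Socs2, -0.07 ± 0.16 for Socs3, -0.91 ± 0.33 for Cish and 0.56 ± 0.28 for Pim2. In batch 3, 4 genes were higher with trap than with mast supernatant, where 1.44% of all genes were and 1.45% passed: Socs2 (2.71 ± 0.54, adjusted p = 0.011), Socs3 (0.93 ± 0.15, adjusted p = 0.00135), Cish (2.24 ± 0.40, adjusted p = 0.00512) and Pim1 (0.59 ± 0.12, adjusted p = 0.0101). Osm was at 0.93 ± 0.27 (adjusted p = 0.14, and 0.00282 without the filter), Socs1 at 0.68 ± 0.31 and Pim2 at -0.27 ± 0.27. The Socs2 call was lost with DESeq2 (adjusted p = 0.224). Without mast replicate 5 only Socs3 of those 4 passed in batch 3, with Socs2 at an adjusted p of 0.116, Cish at 0.0728 and Pim1 at 0.0947, and without mast replicate 3 Pim1 was at 0.0891. The trap to mast difference varied by batch for Socs3 (adjusted p = 0.0181), Cish (0.00522), Pim1 (0.00201) and Osm (0.000618), against 1.89% of all genes, the Socs3 call being lost without mast replicate 3 (0.0906) or 5 (0.0776), and Socs1 (0.954), Socs2 (0.365) and Pim2 (0.575) did not pass.

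Mast cell transcripts were present in the treated libraries and moved with batch. Of 22 mast cell markers, 8 were at 0 in all untreated libraries (Mcpt4, Mcpt9, Tpsb2, Tpsab1, Tpsg1, Mrgprb1, Mrgprb2 and Tph1). Hdc, Gata2 and Hpgds were above 1 CPM in untreated cells and were left out of the sum. The other 19 markers summed to 1.44 to 3.03 CPM in untreated libraries. In the mast libraries they summed to 78.3 and 103 CPM in batch 1, 1496 in batch 2, and 305 and 241 in batch 3, and in the trap libraries to 84.0, 798 and 2168 CPM in batches 1, 2 and 3. Over all batches, 12 of 21 tested markers rose with mast and 10 with trap supernatant, where 4.79% and 1.72% of all genes passed in either direction. Markers at 0 in untreated libraries could pass the filter on low counts only through treated libraries, so they could only rise. The marker counts therefore cannot be weighed against those shares. The library with the highest Socs2 level, trap in batch 3, also had the highest sum, and the next Socs2 levels, 1.29, 1.17 and 1.03 CPM, belonged to libraries with sums of 84.0, 798 and 1496 CPM. Osm, Pim1 and Socs3 were instead highest in batch 1, where the sums of the treated libraries were lowest. Neutrophil markers summed to 138 to 208 CPM in batch 1, 82.0 to 124 in batch 2 and 297 to 353 in batch 3, and moved in part with the 7 genes. With mast supernatant 5 of 13 tested ones rose in batch 1, where 5.67% of all genes rose. In batches 2 and 3, 1 and 2 of them fell, where 1.63% and 8.18% of all genes fell. With trap supernatant none passed in batch 1 and 1 fell in each of batches 2 and 3, where 0.896% and 1.79% of all genes fell. The mast interaction with batch passed for 6 of the 13 and the trap interaction for 2, against 9.29% and 3.75% of all genes. Lymphoid markers summed to at most 0.564 CPM. The 4 stromal markers set batch 2 apart, with a sum of 127 to 150 CPM in its libraries against 7.64 to 27.2 CPM in those of batches 1 and 3, and neither of the 2 tested ones was called for a supernatant. The part that RNA of mast cells, neutrophils or stromal cells plays in the levels of the 7 genes was not tested.

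**Figure D3:**
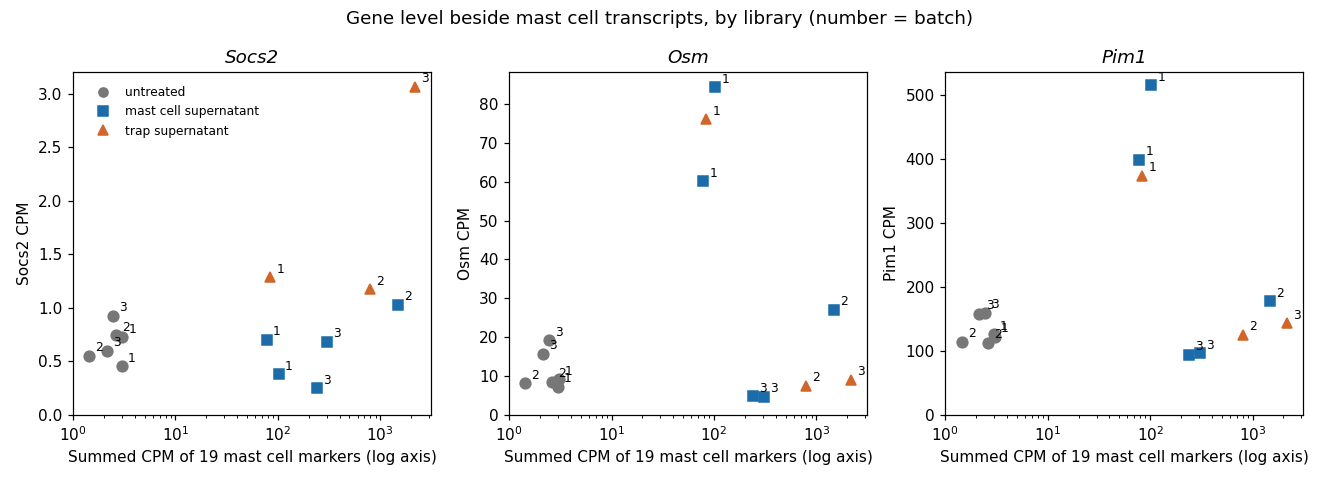
Level of Socs2, Osm and Pim1 in CPM (vertical axis) against the summed level of 19 mast cell markers (horizontal log axis) in each library, with the batch number beside each point and grey circles for untreated, blue squares for mast and orange triangles for trap supernatant. The highest Socs2 point (3.06) has the highest marker sum (2168), while the highest Osm and Pim1 points (84.3 and 515) have a marker sum of 103.

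Other genes of the pathway were read from 5 lists, which describe the surroundings of the 7 genes by counts only. Of all genes, 8.97%, 4.03% and 12.1% passed in either direction with mast supernatant in batches 1, 2 and 3. With trap supernatant 6.07%, 1.82% and 3.66% passed. Over all batches 4.79% passed with mast and 1.72% with trap supernatant, and the counts of every list are to be read beside these shares. Among ligands, 8 of 19 were counted well enough to test, and Il6 was not, with 23 reads in all. With mast supernatant in batch 1, 6 ligands rose, among them Il10, an anti-inflammatory cytokine (3.02 ± 0.34), Csf1, the macrophage growth factor (1.26 ± 0.17), Csf2 (4.43 ± 0.88) and Il27 (1.26 ± 0.26). Csf2 had only 49 reads over all libraries and 0.0585 ± 0.0659 CPM in untreated cells (SD, n = 6), so its fold change starts near 0. Il10 rose in batches 2 (1.97 ± 0.32) and 3 (1.32 ± 0.31) too and was the only ligand called over all batches with mast supernatant (1.99 ± 0.36, adjusted p = 0.0113). Csf1 instead fell in batch 3 with mast (-2.92 ± 0.20, adjusted p = 3.33e-05) and trap supernatant (-1.29 ± 0.23, adjusted p = 0.0208). No ligand passed as lower in batch 2. Trap supernatant raised 5 ligands in batch 1, including Lif, an interleukin-6 family member like Osm (3.21 ± 0.62, adjusted p = 0.00306), and none in batches 2 and 3. Lif was low as well, with 206 reads over all libraries and 0.806 ± 0.953 CPM in untreated cells (SD, n = 6). The median ligand was at 1.26 in batch 1 and -0.36 in batch 3 with mast supernatant.

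Receptors and the kinases behind them were called in both directions. All 24 receptors were tested. With mast supernatant over all batches 4 fell and none rose: Ifngr2 (-0.26 ± 0.05), Ifnar1 (-0.27 ± 0.05), Il13ra1 (-0.41 ± 0.09) and Csf2rb (-0.22 ± 0.06), which are subunits for interferons, interleukin 13 and GM-CSF. Osmr, the specific subunit of the oncostatin M receptor, was at 0.483 ± 0.605 CPM in untreated cells (n = 6), and its partner Il6st at 174 ± 41.1 CPM. No receptor passed over all batches with trap supernatant by edgeR, and 4 had an unadjusted p under 0.05, as had 12.8% of all genes. Within batches, 2 receptors rose and 2 fell with mast supernatant in batch 1, 2 fell in batch 2 and 3 fell in batch 3. With trap supernatant 2 rose and 1 fell in batch 1 and none passed in batches 2 and 3. There, 7 and 2 receptors had an unadjusted p under 0.05, against 8.9% and 15% of all genes. Il21r, the interleukin 21 receptor, fell with mast supernatant in batches 1 (-0.51 ± 0.12) and 2 (-0.75 ± 0.18) and with trap supernatant in batch 1 (-0.75 ± 0.15), and in batch 2 it was higher with trap than with mast supernatant (1.19 ± 0.20, adjusted p = 0.00307). Il10ra, a subunit of the interleukin 10 receptor, rose in batch 1 with mast (0.50 ± 0.12) and trap supernatant (0.60 ± 0.14). Of 11 kinases and STATs, none passed over all batches. An unadjusted p under 0.05 was found for 5 with mast and 2 with trap supernatant, against 19.1% and 12.8% of all genes. Within batches, Jak2 fell with mast supernatant in batches 2 (-0.51 ± 0.13, adjusted p = 0.0356) and 3 (-0.84 ± 0.11, adjusted p = 3.33e-05) and with trap supernatant in batch 3 (-0.53 ± 0.13, adjusted p = 0.0315). Stat2, which carries interferon signals, fell with mast supernatant in batches 2 (-0.74 ± 0.16) and 3 (-0.63 ± 0.13) and rose with trap supernatant in batch 1 (0.77 ± 0.15, adjusted p = 0.00649). It was higher with trap than with mast supernatant in batches 1 (0.89 ± 0.15, adjusted p = 0.0351) and 2 (1.21 ± 0.18, adjusted p = 0.00396).

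Among 15 other brakes and relatives, the remaining Pim kinase also turned between batches 1 and 3. Pim3 rose in batch 1 with mast (1.42 ± 0.14, adjusted p = 1.19e-06) and trap supernatant (1.16 ± 0.16, adjusted p = 0.000129) and fell with mast supernatant in batch 3 (-0.64 ± 0.14, adjusted p = 0.00564). Usp18, an interferon-induced brake, rose with trap supernatant in batch 1 (1.75 ± 0.34, adjusted p = 0.0202) and fell with mast supernatant in batch 3 (-1.63 ± 0.32, adjusted p = 0.0137). Socs5, by contrast, passed over all batches as higher with mast supernatant (0.35 ± 0.05, adjusted p = 0.00121), as did the phosphatase gene Ptpn1 as lower (-0.31 ± 0.05, adjusted p = 0.00157). In all, 3 of the 15 rose and 1 fell with mast supernatant in batch 1, and 1 rose and 3 fell in batch 3.

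STAT target genes also turned between batches 1 and 3. Of 16 tested, 8 rose and 1 fell with mast supernatant in batch 1, 2 rose and 4 fell in batch 2, and 0 rose and 9 fell in batch 3. Of all genes, 5.67% rose in batch 1, 2.4% rose and 1.63% fell in batch 2, and 8.18% fell in batch 3. In batch 1 the calls included Zfp36, which destabilises cytokine mRNAs (2.54 ± 0.12), Nfil3 (1.74 ± 0.13) and Junb (1.34 ± 0.10), and in batch 3 Irf1 (-1.46 ± 0.11), Nfil3 (-1.13 ± 0.14) and Junb (-0.92 ± 0.10). With trap supernatant 6 rose in batch 1 and none passed in batch 2, where 5 and 8.9% of all genes had an unadjusted p under 0.05. In batch 3, 3 fell, Irf1 (-0.91 ± 0.13), Bcl3 (-0.62 ± 0.13) and Nfil3 (-0.69 ± 0.17). The interaction with batch passed for 9 of the 16 with mast and 6 with trap supernatant, against 9.29% and 3.75% of all genes. Many of these genes also answer to signals other than STATs, and the list was not tested as a set.

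**Figure D4:**
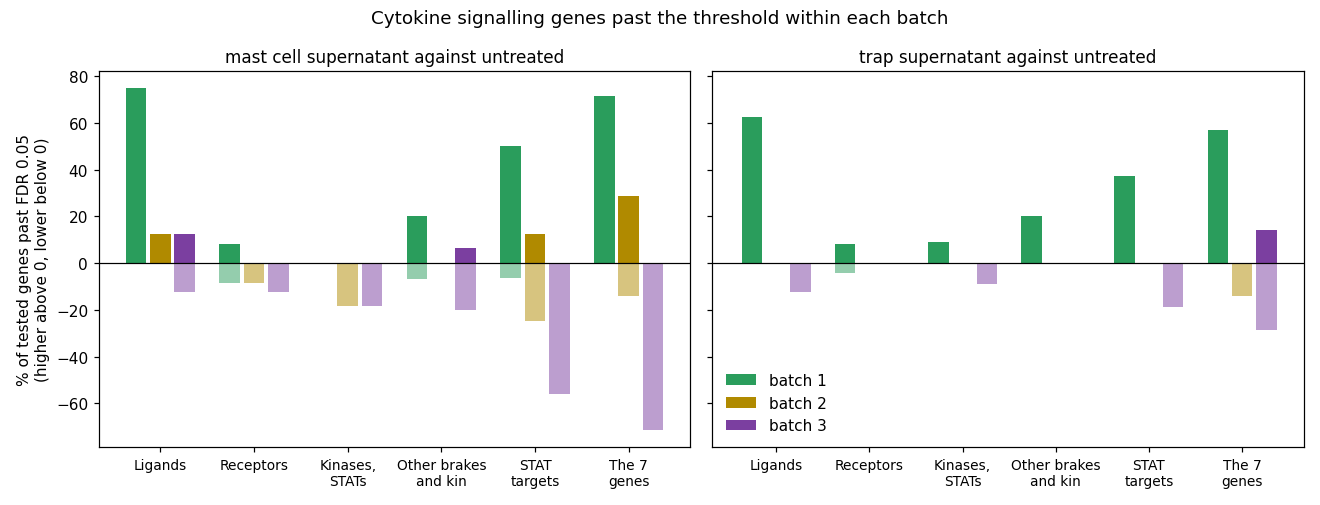
Share of the tested genes of each list, in percent, that passed an adjusted p of 0.05 within batch 1 (green), 2 (ochre) and 3 (purple), with higher genes above 0 and lower genes below 0 in a paler shade, for mast (left) and trap supernatant (right) against untreated. The 7 genes and the STAT targets have most of their calls above 0 in batch 1 and below 0 in batch 3. Receptors had at most 4 of 24 called, with mast supernatant in batch 1, where 8.97% of all genes passed. Kinases and STATs had at most 2 of 11, with mast supernatant in batches 2 and 3, where 4.03% and 12.1% of all genes passed. These counts of few genes are larger shares than those of all genes.

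Genes with the nearest profile to each member were found by the root mean square difference of log2 CPM, each gene centred on its own mean, over the 14 libraries and among 9766 genes that averaged 5 CPM or more. This is a description, since the libraries share batches and treatments. Osm, whose own SD was 1.38 on the log2 scale, lay nearest to Csrnp1 (0.23), Ccl4 (0.27), a chemokine, and Nr4a1 (0.29), an immediate early nuclear receptor. Pim1 (own SD 0.76) lay nearest to Tnfaip3 (0.18), Ifrd1 (0.19) and Nfkbid (0.19), of which the first and last encode regulators of NF-kB. Socs3 (own SD 0.75) lay nearest to Dusp2 (0.24), Irf1 (0.27) and Junb (0.32), and Cish (own SD 1.0) to Plk3 (0.35), Rgcc (0.39) and Csf1 (0.44). Socs1 (own SD 0.58) had the interferon-inducible genes Ifi211 (0.26), Isg15 (0.28) and Mndal (0.29) as its neighbours. Socs2 had no close neighbour, the best being Cd33 at 0.51 against its own SD of 0.77. With 3 to 38 reads of Socs2 a library, counting noise adds to that SD and to every difference, so a distinct profile cannot be read from this. Pim2 varied little (own SD 0.27), with Snhg12 (0.17), Ing2 (0.17) and Nuak2 (0.18) nearest.

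**Figure D5:**
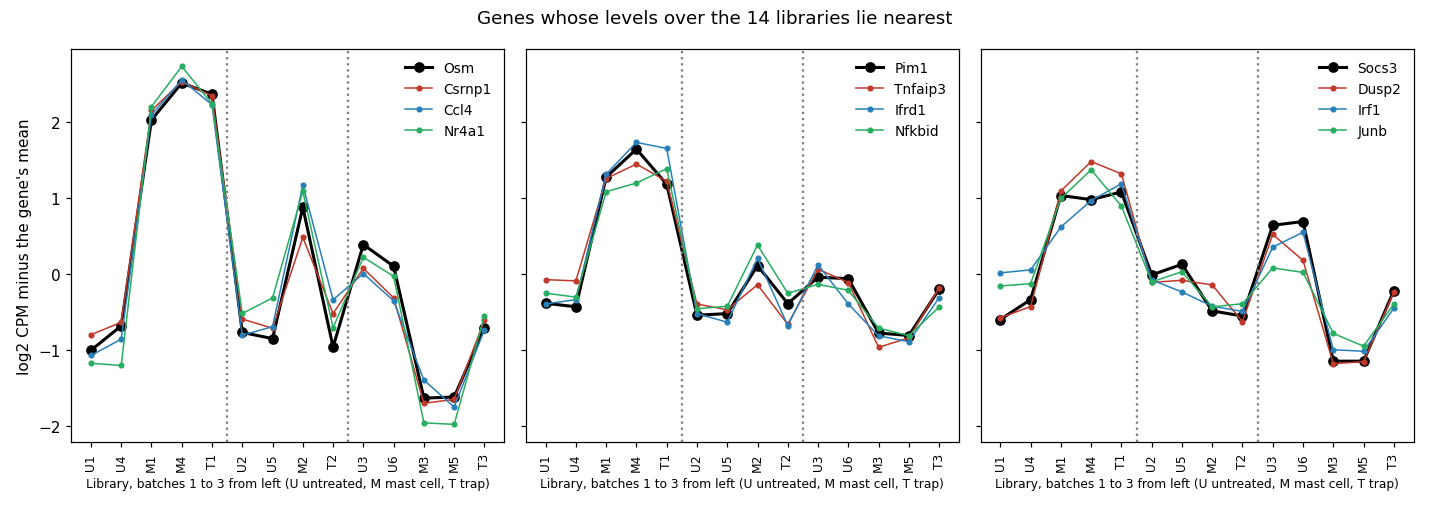
Log2 CPM of Osm, Pim1 and Socs3 (black) and of the 3 genes nearest to each (colours), minus the gene's mean (vertical axis), in the 14 libraries ordered by batch (horizontal axis; U untreated, M mast, T trap, with the replicate number; dotted lines part the batches). Osm and its neighbours peak in the treated libraries of batch 1 and are lowest in the mast libraries of batch 3, and Socs3 lacks the rise that Osm shows in the mast library of batch 2.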

How the data were processed

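Poly(A) RNA from untreated, mast supernatant and trap supernatant macrophages was extracted with a Qiagen column kit and made into stranded Illumina libraries, per the labels' protocols. The authors deposited raw counts per gene for the 14 libraries, made with featureCounts 2.0.0 on GRCm38, per the submitters' processing notes; their aligner, annotation release and strand setting were not given in those notes. Of 47937 gene identifiers, 47224 had a symbol in GENCODE mouse release 21, which also gave coordinates and exon lengths.

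The analysis used edgeR 4.0.16 under R 4.3.3: filterByExpr by group (13061 genes kept), TMM, and robust quasi-likelihood F tests with Benjamini-Hochberg adjustment over all genes kept, threshold 0.05. An adjusted p is from this test unless another tool is named, and SE is implied by F. One model held group and batch (9 residual degrees of freedom), the other the 9 pairings of group and batch (5 residual degrees of freedom). Total counts of 11729073 to 22720419 per library set the precision of low genes such as Socs2. Scripts were tested on simulated counts.

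Libraries were grouped by their titles. Replicates 1 to 3 carry batch labels 1 to 3 in each group, so equal numbers mean an equal batch. With group means subtracted, the 9 same-numbered pairs correlated at 0.298 to 0.71 and the 18 others at -0.592 to 0.173. Within groups, chi-square divided by its degrees of freedom was 1.77 to 14.0 for the 5 pairs of the same batch and 29.1 to 74.7 for the 23 other pairs. No library was thus an exact copy of another of its group. The values cannot tell whether 2 libraries of a batch came from the same culture or RNA, and the spread of the within-batch tests comes from those 5 pairs. Alternatives were DESeq2's size factors, no filter, limma-voom (limma 3.58.1), DESeq2 1.42.0, no batch term, a replicate block, and each library or batch left out. The 7 genes, the pathway and marker lists and the tests were chosen with earlier results of these data known. By rule all 7 genes are named in each comparison, and others from the lists come from the 4 per list and comparison that passed with the smallest adjusted p.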

Additional observations from a re-analysis of the deposited data

Results flagged for a closer look

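The supernatant effects differed between the 3 batches by edgeR's interaction test. For mast supernatant against untreated the adjusted p was 0.000283 for Socs1, 6.49e-10 for Socs3, 1.48e-05 for Cish, 2.44e-09 for Pim1, 0.0371 for Pim2 and 8.28e-09 for Osm. For trap supernatant against untreated it was 0.00336 for Socs1, 4.04e-07 for Socs3, 3.17e-06 for Pim1 and 5.93e-07 for Osm. Between trap and mast supernatant, a comparison added after the data were seen, it was 0.0181 for Socs3, 0.00522 for Cish, 0.00201 for Pim1 and 0.000618 for Osm. Batch 1 gave the positive and batch 3 the negative log2 differences for mast supernatant, as with Osm at 3.13 and -1.89. What differed between the batches was not tested, and the labels do not give it. Dixon's criterion flagged no library of the untreated or mast groups for any of the 7 genes. It pooled the 3 batches of a group, whose levels differ, and so could hardly flag a library that departs from its own batch. The trap libraries were not tested in this way.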

How the results depend on the processing

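Of 1755 values of single genes under alternative settings, 1617 kept their direction and their side of the threshold, 45 lost a call, 17 gained one and 76 changed sign. The calls against untreated of Osm and Pim1 within batches 1 and 2, of Socs3 in batches 1 and 3 and of Socs1 in batch 1 held in every setting that was run. So did the falls of Osm, Pim1 and Cish with mast supernatant in batch 3. Averaged log2 differences changed sign as follows, and the cause was not tested. Without the batch term, mast supernatant gave 0.079 for Socs1, 0.00995 for Socs3 and 0.027 for Cish, and trap supernatant 0.12 for Socs3. By limma-voom, Socs1 was at 0.12 with mast and Socs3 at 0.16 with trap supernatant, and by DESeq2 Cish was at -0.045 with trap supernatant. The replicate block on 9 libraries, the same term as batch there, gave 0.27 for Socs2 and -0.10 for Pim2 with mast supernatant and 0.088 for Pim2 between trap and mast supernatant, and changed no call of the 7 genes. Without batch 1, mast supernatant gave -0.14 for Pim1, -0.34 for Pim2 and -0.10 for Osm, trap supernatant -0.41 for Cish, -0.015 for Pim1 and -0.70 for Osm, and trap against mast 0.12 for Pim1 and 0.13 for Pim2. Without batch 2, the values were 0.16 for Socs1 with mast, 0.15 for Socs3 with trap, and 0.029 for Pim1 and 0.23 for Osm between trap and mast supernatant. Without batch 3, mast supernatant gave 0.54 for Socs1, 0.27 for Socs2, 0.62 for Socs3 and 0.71 for Cish, trap supernatant 0.52 for Socs3 and 0.21 for Pim2, and trap against mast -0.10 for Socs3 and -0.39 for Cish. With 1 library left out, ranges that crossed 0 were -0.27 to 0.18 for Socs1, -0.51 to 0.19 for Socs2, -0.46 to 0.17 for Cish and -0.12 to 0.18 for Pim2 with mast supernatant. They were -0.42 to 0.10 for Socs3, -0.17 to 0.28 for Cish, -0.20 to 0.12 for Pim2 and -0.21 to 1.13 for Osm with trap supernatant. Between trap and mast supernatant they were -0.21 to 0.42 for Socs3, -0.13 to 0.46 for Cish, -0.36 to 0.10 for Pim1, -0.24 to 0.10 for Pim2 and -1.41 to 0.11 for Osm. Within batch 1 they were -0.65 to 0.28 for Socs2 with mast supernatant, and -0.24 to 0.19 for Cish and -0.15 to 0.34 for Osm between trap and mast supernatant.

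The number of the 7 genes called moved from 0 to 1 with mast supernatant without batch 1 or batch 3, and from 0 to 1 with trap supernatant without the filter or by DESeq2 (0 to 1 with 1 library left out). Within batch 2 it moved from 1 to 0 with trap supernatant by DESeq2 (0 to 1 with 1 library left out) and from 1 to 2 between trap and mast supernatant without the filter (1 to 2). Between trap and mast supernatant in batch 3 it ran from 1 to 4 with 1 library left out, and between untreated batches it was 3 by DESeq2 and 3 to 5 with 1 library left out.

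Over all genes, 625 were called for mast supernatant, 62 without the batch term, 84 with the replicate block and 231 without batch 2. For trap supernatant 224 were called, 15 without the batch term, 36 with the block, 116 without batch 1, 88 without batch 2, 409 by DESeq2 and 97 to 280 with 1 library left out. Between trap and mast supernatant 0 were called, 11 by DESeq2, 1 without batch 3 and 0 to 3 with 1 library left out. Left-out libraries moved the counts within batches 1, 2 and 3 from 1172, 526 and 1584 to 448 to 2050, 284 to 885 and 811 to 2845 for mast supernatant, and from 793, 238 and 478 to 389 to 1350, 113 to 465 and 372 to 1661 for trap supernatant. The interactions moved from 1214 to 718 to 2417 and from 490 to 298 to 1350. Without the filter the trap counts in batches 2 and 3 and the trap interaction were 412, 907 and 892. Between trap and mast supernatant, 26, 138 and 189 genes within batches and 247 in the interaction became 117, 288, 373 and 484 without the filter, and 5 to 82, 98 to 326, 95 to 397 and 153 to 514 with 1 library left out. Untreated batches differed in 4978 genes, 3207 to 6232 with 1 library left out. Leaving out a library in the model of pairings was possible for the 10 libraries whose pairing holds another. The reads of Socs2 limit what its differences can show.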
